A study of Mus musculus with 6 samples.

Results

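Pax5, Ebf1, Bach2, Pou2af1, Pou2f2, Bcl11a, Irf4 and Spi1 encode transcription factors of the B lymphocyte lineage, and their RNA was measured in mouse splenocytes. These 8 genes were taken by symbol from the deposited count table of 56413 gene symbols. The rule names symbols and no measured value, and all 8 passed the filter on low counts that left 18716 symbols for testing. The libraries came from fresh total splenocytes labelled Top3b-KO, a knockout of Top3b (3 libraries), or wild-type (WT, 3 libraries). Both groups are primary spleen cells with no treatment given in the labels, and ribosomal RNA was depleted before total RNA was sequenced. For all 6 libraries alike, the labels describe both a NEBNext directional kit and a TruSeq stranded kit and give different read lengths in different fields, so which of these made each library is not known, and a difference in kit between libraries could not be tested. The sources used here do not name the strain, the age, the Top3b allele or whether each library is 1 animal, so p-values describe only how these libraries spread. Top3b encodes topoisomerase III-beta, an enzyme that relaxes nucleic acid strands, and the study asks how it protects against immune dysregulation and tumours.

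B cells form under a chain of such factors. Ebf1 opens the B cell programme in precursors, and Pax5 then fixes B cell identity by activating B cell genes and repressing those of other lineages. Spi1, better known as PU.1, is shared with myeloid cells, and Bcl11a is needed at the first steps of lymphoid development and is also found in plasmacytoid dendritic cells. In mature B cells, Pou2f2 (Oct-2) binds the octamer element of immunoglobulin promoters and Pou2af1 (OCA-B) is the coactivator that joins it there. Bach2 holds back plasma cell formation, whereas Irf4 at high levels promotes it. The spleen is rich in mature B cells but also holds T cells, myeloid cells and erythroid cells. In bulk RNA, fewer cells of a type and less RNA per cell cannot be told apart.

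The stretch before the start of transcription was available from RefSeq (build GRCm38.p6) for 7 of the 8 genes, in 8 windows because Ebf1 has 2. In the 250 bases before the start, both strands were searched for the words that these same factors are known to read. The element bound jointly by PU.1 and IRF proteins, GGAA and GAAA with 2 free bases between them, occurred in Bach2 and Pou2f2, which is 2 of 8 windows against 2.30% of 32851 windows over all genes. The PU.1 core GAGGAA occurred in 3 of 8 windows (Pou2f2, Irf4 and 1 of Ebf1) against 23.3% of all windows. The octamer ATGCAAAT was found in 0 of the 8 windows and 1.60% of all windows, and the EBF1 core CCCNNGGG in 0 of the 8 and 11.8% of all. Such matches describe letters, not bound sites. The 3 windows below are among those that hold the words of PU.1 and its IRF partner, both represented among the 8 factors. The Ebf1 window with GAGGAA, 125 to 130 bases before its start, is not shown. Capitals mark the joint element or GAGGAA, here read on the opposite strand, and each sequence runs 5′ to 3′ towards the start of its gene.
Bach2: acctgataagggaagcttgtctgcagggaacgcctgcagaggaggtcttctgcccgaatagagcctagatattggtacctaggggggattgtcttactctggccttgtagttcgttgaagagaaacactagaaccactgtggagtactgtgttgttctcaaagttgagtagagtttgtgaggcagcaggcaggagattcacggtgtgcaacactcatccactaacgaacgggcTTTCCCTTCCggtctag
Pou2f2: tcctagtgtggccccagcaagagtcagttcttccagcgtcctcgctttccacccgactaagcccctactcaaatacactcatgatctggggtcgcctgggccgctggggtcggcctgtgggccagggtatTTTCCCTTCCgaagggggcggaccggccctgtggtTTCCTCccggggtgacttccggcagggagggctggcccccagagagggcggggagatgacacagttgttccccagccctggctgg
Irf4: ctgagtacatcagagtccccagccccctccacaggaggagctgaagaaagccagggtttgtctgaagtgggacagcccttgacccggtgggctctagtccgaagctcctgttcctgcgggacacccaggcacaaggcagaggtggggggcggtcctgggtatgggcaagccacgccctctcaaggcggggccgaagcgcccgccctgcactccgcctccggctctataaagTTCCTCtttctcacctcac
The Bach2 window lies on the plus strand at chr4:32417185-32417434, with its match 8 to 17 bases before the start. The Pou2f2 window lies on the minus strand at chr7:25132461-25132710, with the joint element 111 to 120 bases and the PU.1 core 80 to 85 bases before the start. In Irf4, on the plus strand at chr13:30748983-30749232, the PU.1 core ends 14 bases before the start. These positions are in GRCm38.p6, while the reads were aligned to mm39.

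Library totals ranged from 9941014 counts in Top3b-KO replicate 3 to 25473404 in Top3b-KO replicate 2. The 8 factors had between 609 and 17221 counts in any library, and counting error was not compared with the spread between libraries. Top3b itself was at 51.5, 48.2 and 49.7 CPM (counts scaled to library size with TMM factors) in the Top3b-KO libraries, against 95.1, 86.9 and 91.0 CPM in the WT libraries. The groups did not overlap, and the fold was 0.547 (edgeR adjusted p = 5.78e-06). Top3b counts were lower but not absent in the knockout, and which exons the remaining reads came from cannot be read from a count per gene.

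None of the 8 factors passed the test between genotypes. By edgeR's quasi-likelihood test, 0 of 8 had an adjusted p under 0.05, against 0.0107% of all tested genes, and 0 of 8 had an unadjusted p under 0.05, against 5.52% of all (1.83% higher and 3.69% lower in Top3b-KO). DESeq2 and limma-voom also called 0 of 8. For 0 of 8 did the Top3b-KO libraries lie wholly above or below the WT libraries, which occurred for 11.0% of all tested genes (5.39% above and 5.63% below). The 95% intervals of the fold change lay between 0.800 and 1.14 for every factor. The median log2 fold change of the 8 was -0.027, beside -0.0029 over all tested genes.

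**Figure D1:**
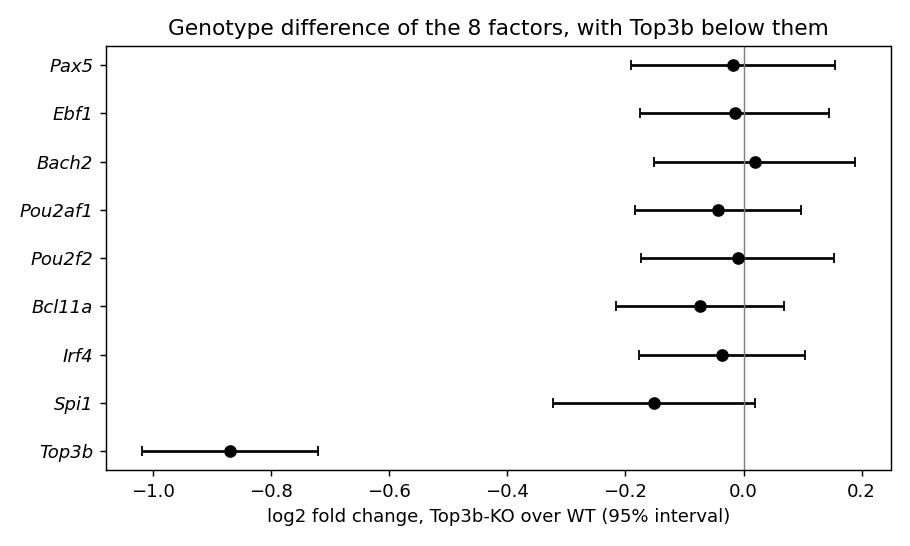
The log2 fold change of each factor (Top3b-KO over WT, horizontal axis) with its 95% interval from edgeR's quasi-likelihood test, in the 6 libraries. All 8 intervals hold 0, from Bach2 at 0.019 to Spi1 at -0.15, while Top3b sits at -0.87.

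The commitment factors Pax5 and Ebf1 were the most abundant by counts. Pax5 had 662, 682 and 713 CPM in the Top3b-KO libraries, against 590.1, 751 and 741 CPM in the WT libraries. All 3 Top3b-KO values fell inside the WT range, which WT replicate 1 widened at its low end. Pax5 averaged 686 ± 25.6 CPM in Top3b-KO and 694 ± 90.4 CPM in WT (SD, n = 3 each), a fold of 0.987 with a 95% interval of 0.876 to 1.11 (edgeR adjusted p = 0.99). Ebf1 had 335, 344 and 344 CPM in the Top3b-KO libraries, against 299, 368 and 367 CPM in the WT libraries. As for Pax5, WT replicate 1 was the lowest library, and the Top3b-KO values lay between it and the other WT values. The Ebf1 fold was 0.990 (95% interval 0.886 to 1.11, edgeR adjusted p = 0.99).

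**Figure D2:**
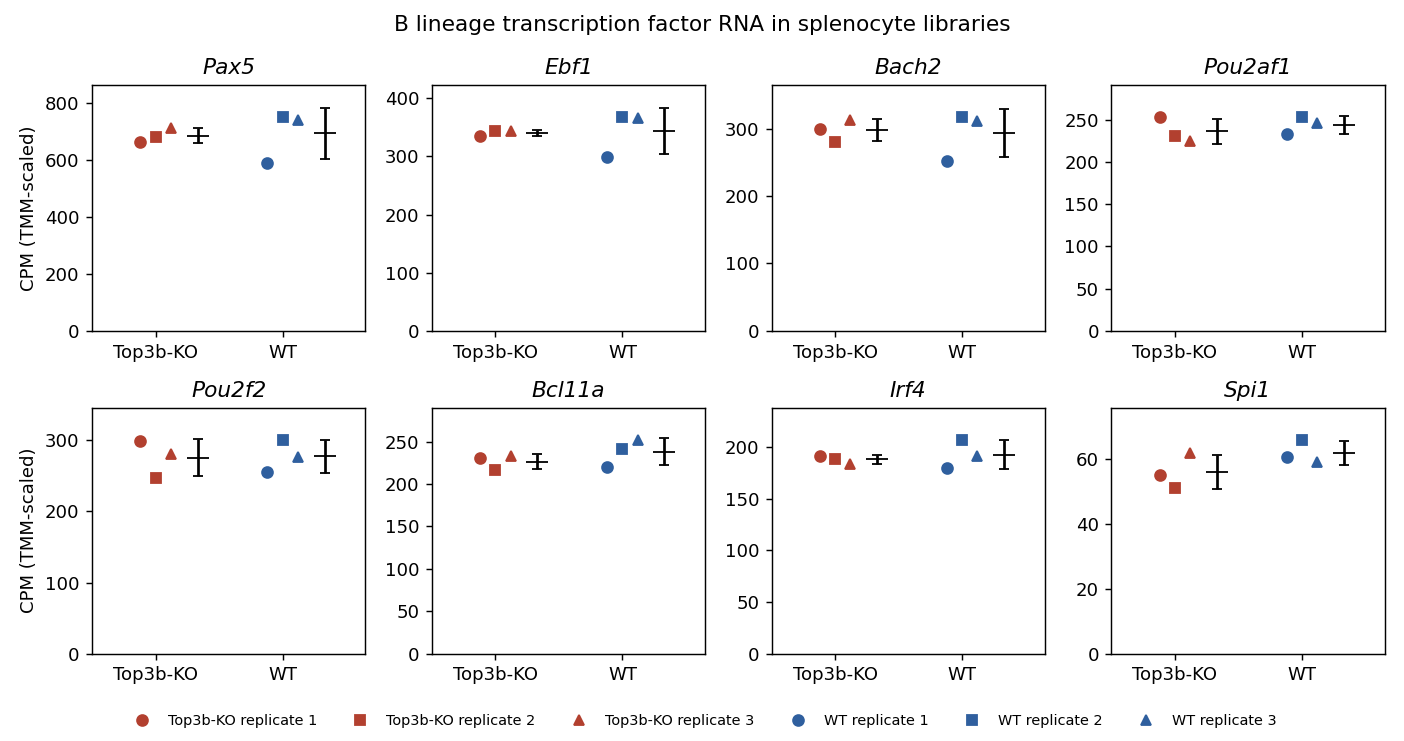
TMM-scaled CPM of each factor (vertical axes start at 0) in 3 Top3b-KO and 3 WT libraries, with symbols for replicates and the mean ± SD in black. The groups overlap for all 8 factors, and WT replicate 1 is the lowest library for Pax5, Ebf1, Bach2 and Irf4.

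The octamer pair, Pou2f2 and its coactivator Pou2af1, differed between genotypes by less than the spread of libraries. Pou2f2 had 299, 248 and 281 CPM in the Top3b-KO libraries, against 255, 301 and 277 CPM in the WT libraries. Its highest and lowest values were WT replicate 2 and Top3b-KO replicate 2, and its fold was 0.993 (95% interval 0.887 to 1.11, edgeR adjusted p = 0.995). Pou2af1 had 253, 231 and 225 CPM in the Top3b-KO libraries, against 233, 253 and 246 CPM in the WT libraries. The groups overlapped, with a fold of 0.970 (95% interval 0.880 to 1.07, edgeR adjusted p = 0.97). The log2 fold change of Pou2af1, -0.043, moved to -0.088 without Top3b-KO replicate 1 and to -0.010 without Top3b-KO replicate 3. Pou2af1 was among the steadiest of the 8, with a coefficient of variation of 5.03% over the 6 libraries, against 7.94% for Pou2f2.

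Bach2 and Irf4, which act in opposite directions on plasma cell formation, also overlapped. Bach2 had 300.2, 280.1 and 313 CPM in the Top3b-KO libraries, against 253, 317 and 311 CPM in the WT libraries. It was the only factor whose log2 fold change lay above 0, at 0.019 (SE 0.081), a fold of 1.01 with a 95% interval of 0.901 to 1.14 (edgeR adjusted p = 0.99), and its sign turned without Top3b-KO replicate 3 (-0.017) or WT replicate 1 (-0.082). Irf4 had 192, 188 and 184 CPM in the Top3b-KO libraries, against 179.6, 207 and 192 CPM in the WT libraries. The Top3b-KO values stood close together, with an SD of 4.01 CPM against 13.8 CPM in WT, and inside the WT range. The Irf4 fold was 0.976 (95% interval 0.885 to 1.08, edgeR adjusted p = 0.97).

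Spi1 and Bcl11a, the factors of earlier stages that other blood lineages share, had log2 fold changes of -0.15 and -0.073 and overlapping groups. Spi1 had 55.0, 51.1 and 61.6 CPM in the Top3b-KO libraries, against 60.6, 65.8 and 58.9 CPM in the WT libraries. Top3b-KO replicates 1 and 2 lay below every WT library, while Top3b-KO replicate 3 lay above 2 of them. The Spi1 log2 fold change was -0.15 (SE 0.081), a fold of 0.900 with a 95% interval of 0.800 to 1.01, an unadjusted p of 0.079 and an adjusted p of 0.91 by edgeR. Leaving out Top3b-KO replicate 2 moved that log2 fold change to -0.083. Bcl11a had 230.1, 216 and 233 CPM in the Top3b-KO libraries, against 221, 242 and 252 CPM in the WT libraries. All 3 Top3b-KO values were below the WT mean, but WT replicate 1 lay among them, and the fold was 0.951 (95% interval 0.861 to 1.05, edgeR adjusted p = 0.94). Leaving out Top3b-KO replicate 2 moved its log2 fold change to -0.035, leaving out WT replicate 1 to -0.13 and leaving out WT replicate 3 to -0.031, and scaling libraries to B cell identity markers gave -0.016.

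Summed over the 8 factors, the level was 2326, 2240 and 2354 CPM in the Top3b-KO libraries, against 2089, 2505 and 2444 CPM in the WT libraries. The groups overlapped, with means of 2307 ± 59.5 CPM in Top3b-KO and 2346 ± 224 CPM in WT (SD, n = 3 each, exact two-sided permutation p = 0.8, where the smallest p that 3 against 3 can give is 0.1). Although 7 of the 8 fold changes lay below 0, this count changed with scaling to B cell identity markers and with single libraries left out. It stayed at 7 of 8 with RLE or upper-quartile factors, total counts only, no low-count filter and a stricter filter. DESeq2, limma-voom, robust=FALSE and the replicate block also gave 7 of 8. When libraries were scaled to B cell identity markers, 2 of 8 lay below 0. With that scaling the median log2 fold change was 0.053 over all tested genes and 0.032 over the 8 factors. Leaving out WT replicate 2 left 3 of 8 below 0, leaving out WT replicate 1 or Top3b-KO replicate 3 put all 8 below 0, leaving out Top3b-KO replicate 1 or WT replicate 3 left 5 of 8, and leaving out Top3b-KO replicate 2 left 6 of 8. Pax5 and Ebf1 lay above 0 without Top3b-KO replicate 1 (0.013 and 0.0044), WT replicate 2 (0.042 and 0.035) or WT replicate 3 (0.030 and 0.031). Pou2f2 did so without Top3b-KO replicate 2 (0.068) or WT replicate 2 (0.052), and Irf4 without WT replicate 2 (0.019). The log2 ratio of the summed levels also changed sign with that scaling (0.035) and without Top3b-KO replicate 2 (0.0014), WT replicate 2 (0.025) or WT replicate 3 (0.0045).

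The mean level of these genes spread more widely among the WT libraries than among the Top3b-KO libraries. Taken singly, Pou2f2, Pou2af1 and Spi1 went the other way. Their SDs were 25.9, 14.7 and 5.33 CPM in Top3b-KO, against 23.1, 10.4 and 3.60 CPM in WT. The mean log2 CPM of the 8 had an SD of 0.049 over the Top3b-KO libraries and 0.12 over the WT libraries, beside a difference of -0.037 between genotypes, and no test of the 2 spreads was made. WT replicate 1 held the lowest value of 4 factors and was below the 6-library mean for 7 of 8, while WT replicate 2 held the highest value of 7 factors. Pax5 was at -0.22 from its own mean on the log2 scale in WT replicate 1, Bach2 at -0.22 and Ebf1 at -0.19, whereas Spi1 was at 0.046 there. Markers of B cell identity, 18 genes such as Cd79a and Ms4a1, all of them tested, were also lowest there. Their mean log2 CPM stood -0.10 from its own mean in WT replicate 1, and 0.094 and 0.091 in WT replicates 2 and 3. T cell markers, 15 genes, stood at 0.087 in WT replicate 1 and at -0.045 and -0.13 in WT replicates 2 and 3. The part of these marker levels in the factors' values was not tested.

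**Figure D3:**
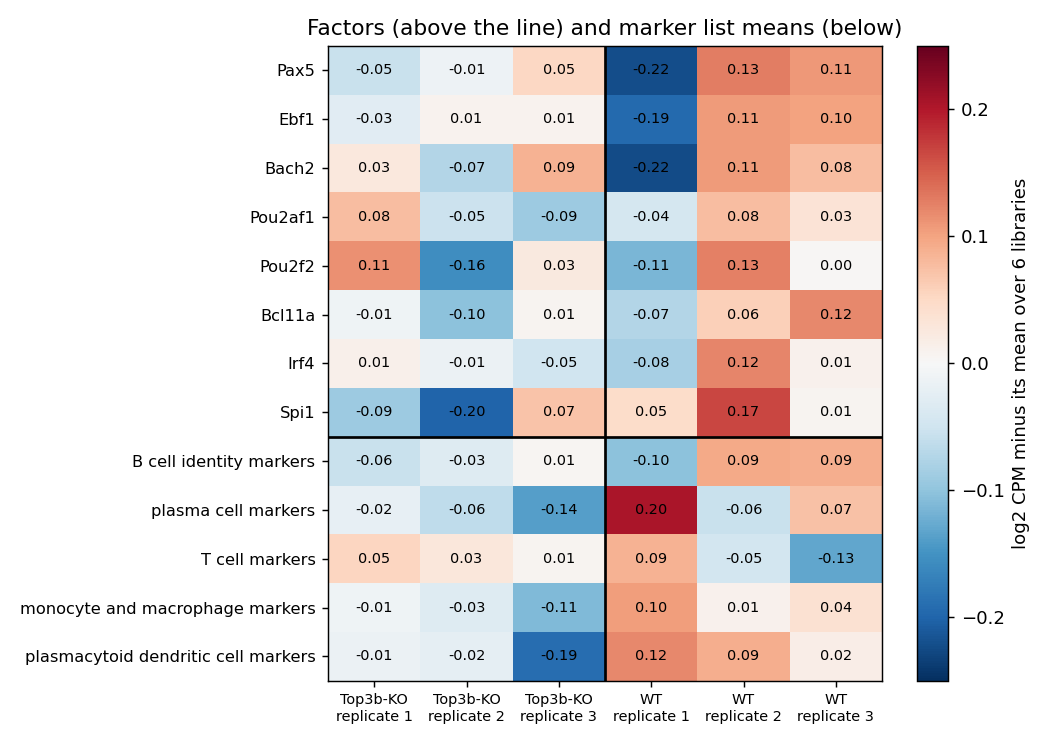
Log2 CPM minus its own mean over the 6 libraries, for the 8 factors (above the line) and for the mean of 5 marker lists (below it), with Top3b-KO libraries on the left and WT libraries on the right. Pax5, Ebf1 and Bach2 are lowest in WT replicate 1 (-0.22, -0.19 and -0.22), where the B cell identity markers are also lowest (-0.10) and plasma cell markers highest (0.20).

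Set against the B cell markers of the same library, the factors lay closer together over the WT libraries. The mean log2 CPM of the 8 factors minus that of the 18 markers was -0.19, -0.30 and -0.25 in the Top3b-KO libraries, against -0.27, -0.24 and -0.29 in the WT libraries. Its SD was 0.053 over the Top3b-KO libraries and 0.025 over the WT libraries, so it narrowed the WT spread and not that of Top3b-KO. The difference between genotypes was 0.017 (exact permutation p = 0.7, n = 3 each), and without Top3b-KO replicate 1 it was -0.0094. Taken one by one, the factors differed from WT on this scale by between -0.092 (Spi1) and 0.081 (Bach2), with Benjamini-Hochberg adjusted exact permutation p between 0.91 and 1 over 8 comparisons. This relative measure does not depend on how libraries were scaled.

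Levels can be compared between genes only per length, so CPM were divided by the kilobases of annotated exon in GENCODE M21. The highest of the 8 was Pou2af1, with 92.7 ± 5.77 CPM per kb in Top3b-KO and 95.6 ± 4.06 in WT (SD, n = 3 each), at rank 338 of 17377 tested symbols with a length. Pax5 followed with 77.5 ± 2.89 CPM per kb in Top3b-KO and 78.4 ± 10.2 in WT, and on this length its range over libraries did not touch that of Pou2af1 or of the next gene. Irf4, Ebf1, Pou2f2 and Bach2 came next, with means over all libraries of 38.8, 35.1, 33.6 and 29.7 CPM per kb, and each overlapped its neighbour in this order. Spi1 (21.8 CPM per kb) and Bcl11a (17.6 CPM per kb) were lowest, and their ranges overlapped each other but not that of Bach2. The places of Bcl11a and Ebf1 rest on the length used. Per kb of the longest transcript Bcl11a was at 38.8 CPM, above Spi1 at 28.9 CPM, and Ebf1 was at 57.3 CPM, above Irf4 at 40.0 CPM. All 8 stood above the median tested symbol, at 4.54 CPM per kb.

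Most factors have a relative in the same protein family, and the levels of these relatives were read on the same scale per length. Spib, the PU.1 relative of B cells and plasmacytoid dendritic cells, was at 87.3 ± 7.73 CPM per kb in Top3b-KO and 99.2 ± 8.79 in WT, above Spi1 in every library. Bach1, the widely expressed relative of Bach2, was at 13.5 ± 0.577 CPM per kb in Top3b-KO and 12.9 ± 0.600 in WT, and Pou2f1 (Oct-1) at 7.31 ± 0.111 in Top3b-KO and 6.70 ± 0.754 in WT. Irf8, a partner of PU.1 in B and myeloid cells, was at 37.8 ± 1.68 CPM per kb in Top3b-KO and 41.9 ± 1.22 in WT. Its place beside Irf4 rests on the length used, since per kb of the longest transcript Irf8 was at 81.1 CPM and Irf4 at 40.0 CPM. Bcl11b, the relative that T cells use, was at 26.2 ± 1.16 CPM per kb in Top3b-KO and 24.4 ± 0.326 in WT. The relatives of Ebf1 were near 0, with 10 counts of Ebf2, 2 of Ebf3 and 2 of Ebf4 summed over the 6 libraries, and Pax2 had 1 count. Of 13 relatives, 8 were tested and 0 passed edgeR's adjusted threshold. At an unadjusted p under 0.05, 2 of the 8 were called (25%, against 5.52% of all tested genes, or 3.69% in the lower direction), Spib (log2 fold change -0.18, adjusted p = 0.87 by edgeR) and Irf8 (-0.15, adjusted p = 0.88 by edgeR), both below 0.

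**Figure D4:**
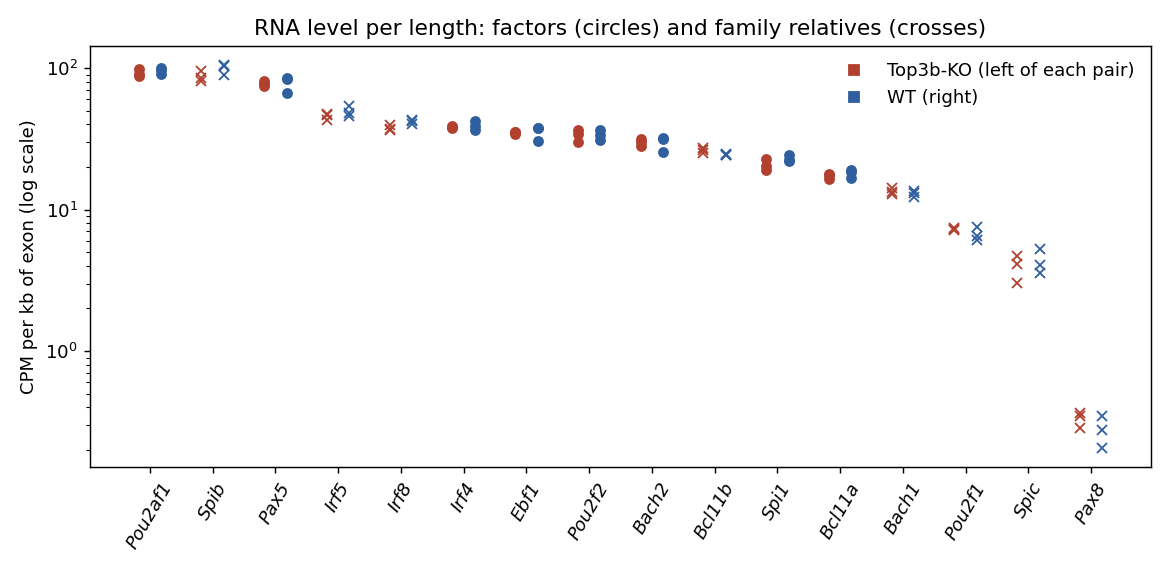
CPM per kb of annotated exon (log axis) in each library, with Top3b-KO in red to the left of WT in blue, for the 8 factors (circles) and 8 tested family relatives (crosses). Averaged over libraries, Pou2af1 lies at 94.2, Spib at 93.2 and Pax8 at 0.305 CPM per kb.

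The balance between a factor and its relative, taken within each library, was compared for 6 pairs. The log2 ratio of Bcl11a to Bcl11b CPM was 0.18, 0.0053 and 0.079 in the Top3b-KO libraries, against 0.17, 0.27 and 0.36 in the WT libraries, a difference of -0.18 with Top3b-KO replicate 1 inside the WT range. For Irf4 over Irf8 it was -0.55, -0.46 and -0.51 in the Top3b-KO libraries, against -0.75, -0.53 and -0.58 in the WT libraries, a difference of 0.11 with overlapping groups. These pairs had the lowest p of the 6, an exact permutation p of 0.2 each and 0.6 after Benjamini-Hochberg adjustment. Pou2f2 over Pou2f1 differed by -0.14, Spi1 over Spib by 0.037, Bach2 over Bach1 by -0.030 and Pax5 over Pax8 by -0.28, with exact permutation p between 0.4 and 0.9. Pax8 had only 20 to 51 counts in any library, so counting error weighs more on the ratio of Pax5 to Pax8. The differences of the 6 pairs rested in part on single libraries. Leaving out a library in turn gave -0.23 (without WT replicate 3) to -0.065 (without Top3b-KO replicate 2) for Pou2f2 over Pou2f1, and -0.41 (without WT replicate 1) to -0.051 (without WT replicate 3) for Pax5 over Pax8. It gave 0.047 (without WT replicate 1) to 0.16 (without WT replicate 2) for Irf4 over Irf8, and -0.22 (without WT replicate 1) to -0.13 (without WT replicate 3) for Bcl11a over Bcl11b. The sign for Spi1 over Spib turned without Top3b-KO replicate 3 (-0.049) or WT replicate 3 (-0.039), and that for Bach2 over Bach1 turned without WT replicate 2 (0.066) or WT replicate 3 (0.0089).

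Other transcription factors of lymphoid cells were followed through a list of 45, all of them tested. By edgeR's adjusted p, 0 were higher and 0 lower, and their median log2 fold change was -0.0011, or 0.0029 with upper-quartile factors. The most abundant, Ets1, was at 1569.9 ± 62.9 CPM in Top3b-KO and 1485 ± 87.5 CPM in WT, and Ikzf1 (Ikaros), needed for all lymphoid cells, at 928 ± 13.2 CPM in Top3b-KO and 875 ± 20.5 CPM in WT (SD, n = 3 each). Unadjusted p under 0.05 occurred for 7 of 45 (15.6%, against 5.52% of all tested genes), of which 1 lay above 0 and 6 below 0. Klf2, a factor of lymphocyte quiescence and trafficking, had the smallest p, with 262 ± 34.9 CPM in Top3b-KO and 316 ± 17.6 CPM in WT (log2 fold change -0.27, adjusted p = 0.67 by edgeR). Named after their values were seen, the others were Lef1 (log2 fold change 0.16), Tcf3 (-0.20), Id3 (-0.28), Relb (-0.16), Bhlhe41 (-0.39) and Zbtb32 (-0.51).

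Genes that the factors are known to control were then counted from short lists. In total splenocytes, other cells also express several of them, such as Cd28 in T cells and Csf1r in macrophages. The counts here and in the lists that follow therefore do not measure the activity of a factor in B cells. Of 12 genes activated by Pax5, 0 passed edgeR's adjusted threshold and 2 had an unadjusted p under 0.05 (16.7%, against 5.52% of all tested genes; Id3 and Lef1, given above), and the median log2 fold change was -0.025. Ikzf3 (Aiolos), a zinc finger factor of lymphocytes, had a log2 fold change of 0.017. Of 9 genes repressed by Pax5, 0 passed and 1 had an unadjusted p under 0.05 (11.1%). This was the T cell costimulatory receptor Cd28 (log2 fold change 0.17, adjusted p = 0.90 by edgeR). Of the Ebf1 list, 7 genes were tested, Pax5 and Pou2af1 among them, 0 passed, and 1 had an unadjusted p under 0.05 (14.3%). Cd79b, a signalling chain of the antigen receptor, had a log2 fold change of -0.028, and the kinase gene Blk was at 173 ± 4.61 CPM in Top3b-KO and 196 ± 18.7 CPM in WT (log2 fold change -0.18, unadjusted p 0.019, adjusted p = 0.84 by edgeR).

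For the remaining factors the lists were shorter, and each count at an unadjusted edgeR p under 0.05 stands beside 5.52% of all tested genes. Of 4 genes activated by Oct-2 or OCA-B, 0 passed by edgeR and 1 had an unadjusted p under 0.05 (Spib, 25% of the list). Their median log2 fold change was -0.056, with Btk, the kinase of the antigen receptor pathway, at -0.037. Of 8 genes activated by PU.1, 0 passed and 1 had an unadjusted p under 0.05 (Csf2ra, 12.5%), with a median of -0.0029. The macrophage receptor gene Csf1r had a log2 fold change of -0.026, Cd72 of 0.029 and Csf2ra of -0.24 (unadjusted p 0.010, adjusted p = 0.79 by edgeR). Of the 2 genes repressed by Bach2, Prdm1, the plasma cell regulator Blimp-1, was at 18.9 ± 2.23 CPM in Top3b-KO and 20.3 ± 2.29 CPM in WT. Hmox1, which degrades heme and is also high in red pulp macrophages, was at 43.4 ± 7.87 CPM in Top3b-KO and 64.0 ± 11.8 CPM in WT. Its groups did not overlap, which occurred for 11.0% of all tested genes (5.63% with Top3b-KO lower). Hmox1 did not pass edgeR's test (log2 fold change -0.55, SE 0.16, adjusted p = 0.78). Of the listed genes named above, groups also did not overlap for Irf8, Tcf3, Id3, Relb, Zbtb32, Blk and Csf2ra, all lower in Top3b-KO. The same held for Bcl11b, Ikzf1 and Lef1, all higher in Top3b-KO. Apart from Bcl11b and Ikzf1, these genes and Hmox1 had an unadjusted edgeR p under 0.05 in the same libraries. Their lack of overlap is therefore not a separate result, and the share over all tested genes is not a like comparison for them.

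**Figure D5:**
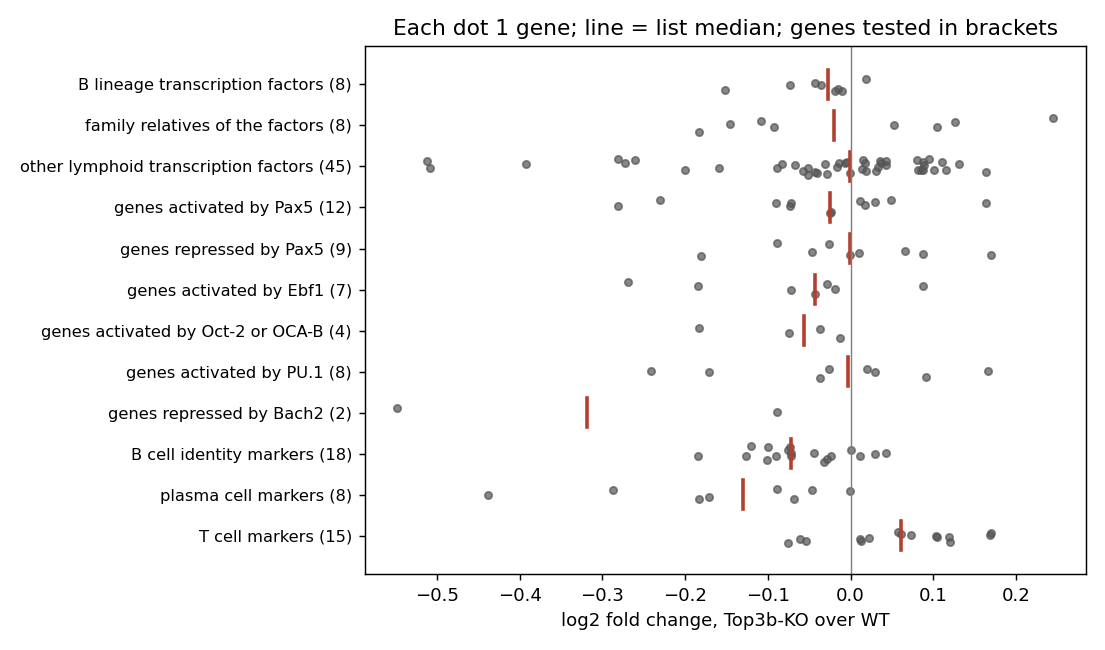
Log2 fold change (Top3b-KO over WT, horizontal axis) of every tested gene in 12 lists, each dot 1 gene and each red line the list median. The medians lie between -0.32 for the 2 genes repressed by Bach2 and 0.061 for T cell markers, and that of the 8 factors is -0.027.

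Markers of the cells that could carry these factors were read in the same libraries. The 18 B cell identity markers summed to between 6200.2 and 6465 CPM in Top3b-KO and between 6014 and 6855 CPM in WT, with a median log2 fold change of -0.072 and 14 of 18 below 0, or 10 of 18 when scaled to these markers themselves. The 8 plasma cell markers summed to between 419 and 545 CPM in Top3b-KO and between 463 and 545 CPM in WT, with a median of -0.13 and 8 of 8 below 0, or 7 of 8 with upper-quartile or B cell scaling. The most abundant of them on average, Tnfrsf13b, was at 185 ± 7.95 CPM in Top3b-KO and 194 ± 23.8 CPM in WT. Like the B cell identity markers it was lowest in WT replicate 1, so this sum may not follow plasma cells alone. The 15 T cell markers summed to between 2557 and 2630 CPM in Top3b-KO and between 2308 and 2705 CPM in WT, with 12 of 15 above 0, or 11 of 15 when scaled to total counts only. For Spi1, the 15 monocyte and macrophage markers summed to between 1105 and 1275 CPM in Top3b-KO and between 1218 and 1254 CPM in WT. Of these 15, 12 lay below 0 (median log2 fold change -0.093), or 10 with B cell scaling and 13 with total counts only. The 11 neutrophil markers ranged from 627 to 1798 CPM in Top3b-KO and from 862 to 1340.5 CPM in WT, and 7 of 11 lay above 0, or 10 with B cell scaling and 6 with total counts only. The 10 plasmacytoid dendritic cell markers, whose cells also use Bcl11a and Spib, summed to between 640.4 and 680.4 CPM in Top3b-KO and between 679.6 and 739 CPM in WT, with a median of -0.14 and 8 of 10 below 0, or 7 of 10 with B cell scaling. Spib is itself among these 10 plasmacytoid markers and the most abundant, at 250 ± 22.2 CPM in Top3b-KO and 284 ± 25.2 CPM in WT. Because B cells also express Spib, the plasmacytoid sum and counts may not follow plasmacytoid cells alone. Among the 8 below 0, Siglech had overlapping groups (log2 fold change -0.25, unadjusted p 0.35 by edgeR). Those above 0 were Ccr9 (0.072) and Klk1 (0.25). In each of these cell type lists 0 genes passed edgeR's adjusted threshold. At an unadjusted p under 0.05 there were 1 B cell (5.56% of its list), 0 plasma cell, 2 T cell (13.3%), 2 monocyte and macrophage (13.3%), 0 neutrophil and 3 plasmacytoid markers (30%), against 5.52% of all tested genes. Several of these counts reuse genes given above and are not independent of the earlier lists. Spib was among the 3 plasmacytoid markers, the relatives and the genes activated by Oct-2 or OCA-B. The 1 B cell marker was Blk, also in the Ebf1 list, and Cd28, repressed by Pax5, was among the 2 T cell markers. The part of these markers in the factors' values was not tested.

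Among the remaining lists, the 7 natural killer cell markers had a median log2 fold change of -0.13, the 8 conventional dendritic cell markers of -0.13 and the 10 erythroid markers of -0.38. Of 8 stromal and endothelial markers, 4 were tested, while Col1a1, Col3a1, Ccl19 and Cxcl12 were too low to test. In these 4 lists, too, 0 genes passed by edgeR. An unadjusted p under 0.05 occurred for 1 natural killer (14.3%), 1 dendritic (12.5%), 0 erythroid and 0 stromal markers, against 5.52% of all tested genes.

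Several factor genes hold other annotated transcripts within them, and the sources used here do not name the strand setting of the counting, so reads from such pairs cannot be told apart where exons overlap. On the opposite strand of Pax5, 5730488B01Rik shares 636 bases of exon and Gm12462 shares 125 bases, and their counts over the 6 libraries came to 3.59% and 4.07% of those of Pax5. Bach2os shares 537 bases with Bach2 and had 1.35% of its counts, and 4930538E20Rik shares 316 bases with Bcl11a and had 1.59% of its counts. These RNAs did not pass the test either. Gm12462 was at 27.1 CPM in Top3b-KO and 29.6 CPM in WT (log2 fold change -0.13, adjusted p = 0.92 by edgeR), and Bach2it1, which lies inside a Bach2 intron on the same strand, at 7.79 CPM in Top3b-KO and 7.99 CPM in WT (log2 fold change -0.040, adjusted p = 0.98 by edgeR).

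Among the 8 factors, Pax5 and Ebf1 had the most alike profiles over the 6 libraries, with a root mean square distance of 0.027 between their centred log2 CPM values. Pou2af1 and Irf4 came next at 0.044 and Pax5 and Bach2 at 0.047. Spi1 lay between 0.099 (Bcl11a) and 0.14 (Ebf1) from the other factors. Over 12749 other genes whose mean reached 1 CPM, the nearest to Ebf1 was Foxp1 (distance 0.022), a forkhead factor of B cells, followed by Dtl (0.024). Nearest to Pax5 were Taf5 (0.026) and Ebf1. The nearest to Bach2 were Mettl15 and Zfyve26 (both 0.034), to Pou2af1 Fam3a and Usp42 (both 0.011), to Pou2f2 Dhx34 (0.034) and Zdhhc16 (0.039), to Bcl11a Pgm3 (0.015) and Polr3gl (0.017), to Irf4 Babam2 (0.019) and Recql5 (0.021), and to Spi1 Pold4 (0.031) and Lat2 (0.034). These distances rest on 6 libraries, whose depth and cell makeup all genes share, and are given as a description.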

How the data were processed

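The values deposited by the authors are expected counts for each gene symbol in 6 libraries, not normalized. Reads were aligned with STAR to mm39, per the submitters' processing notes, and the sources used here do not name the counting tool. Values were rounded to whole numbers, since 72 symbols had fractional ones (tolerance 1e-06), and 0 count columns were left unused. Genes were kept by edgeR's filterByExpr and tested with its quasi-likelihood F test (TMM factors, robust dispersion, genotype as the only term, two-sided, Benjamini-Hochberg over 18716 symbols, threshold 0.05). A standard error is the absolute log2 fold change divided by the root of F, and its 95% interval uses that test's degrees of freedom. Log2 CPM used a prior count of 2. Alternatives used DESeq2 and limma-voom, other scalings and filters, a replicate block and each library left out. Software comprised Python 3.11.15, R 4.3.3, DESeq2 1.42.0, limma 3.58.1 and edgeR 4.0.16. A count of 3 corresponds to between 0.119 and 0.303 CPM, a floor that covers counting error only.

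The 8 members and all lists were chosen with earlier results of these data known. Named genes were the members, Top3b, their relatives, in each list the gene with the smallest p and the 2 most abundant (cell type lists are given mainly as sums), and the 2 genes most like each member, predicted symbols left out; 1 gene that this rule names is not reported here. Any other gene was chosen after its values were seen. Promoters came from RefSeq and lengths from GENCODE M21, which matched 92.8% of tested symbols.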

Additional observations from a re-analysis of the deposited data

How the results depend on the processing

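The count of factors past the threshold was 0 under all 16 alternatives, and their median log2 fold change ranged from -0.099 to 0.032. With libraries scaled to B cell identity markers, the log2 fold change turned to 0.043 for Pax5, 0.046 for Ebf1, 0.013 for Pou2af1, 0.049 for Pou2f2 and 0.022 for Irf4, and the log2 ratio of summed levels to 0.035. The median log2 fold change over all tested genes also moved with that scaling, from -0.0029 to 0.053. Leaving out a library in turn gave -0.13 to 0.042 for Pax5, -0.11 to 0.035 for Ebf1, -0.082 to 0.078 for Bach2, -0.070 to 0.068 for Pou2f2, -0.087 to 0.019 for Irf4, -0.088 to -0.010 for Pou2af1, -0.13 to -0.031 for Bcl11a, -0.22 to -0.083 for Spi1 and -0.10 to 0.025 for the summed level. It gave -0.0094 to 0.044 for the level relative to B cell markers, -0.049 to 0.11 for Spi1 over Spib, -0.16 to 0.066 for Bach2 over Bach1, -0.23 to -0.065 for Pou2f2 over Pou2f1, -0.41 to -0.051 for Pax5 over Pax8, 0.047 to 0.16 for Irf4 over Irf8 and -0.22 to -0.13 for Bcl11a over Bcl11b. Bcl11a and Spi1 stayed below 0 in all 16 alternatives, and the lowest adjusted p for any factor was 0.32, for Spi1 without WT replicate 3. Their cause was not tested. Over all genes, 2 passed in the reported test, against 44 with no low-count filter, 41 with the replicate block, 6 with DESeq2, 1 each with limma-voom, robust=FALSE and the B cell scaling, and 1 to 32 with a library left out (32 without WT replicate 3, 9 without Top3b-KO replicate 1). The correlation of deviations between libraries with the same number was 0.156, -0.0067 and 0.0093. Between libraries with different numbers it ranged from -0.080 to 0.078, below the value for replicate 1. These values cannot settle whether the numbers mark pairs, and the reported test did not take them as pairs. With the replicate block, 0 factors passed, their median log2 fold change was -0.022 and the lowest adjusted p was 0.77. Depth limits mainly Top3b-KO replicate 3.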
